A study of Mus musculus with 8 samples.

Results

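Integrins are cell surface receptors made of 1 alpha and 1 beta chain, and the pair decides which part of the extracellular matrix a cell can hold. The genes described here are 10 chains whose ligands are matrix proteins, namely the alpha chains Itga2, Itga3, Itga5, Itga6 and Itgav and the beta chains Itgb1, Itgb3, Itgb4, Itgb5 and Itgb6. They were chosen by gene symbol, and all 10 were found among the 31894 genes with an identifier in the count table and passed the filter on low counts that left 13598 genes. Itga6 and Itga3 chains bind laminins of the basement membrane, Itga2 binds collagen, Itga5 binds fibronectin, and Itgav binds ligands with an RGD motif such as vitronectin, fibronectin and latent TGF-beta. Itgb1 pairs with all of these alpha chains, Itgb4 pairs only with Itga6 and ties laminin to keratin filaments in hemidesmosomes, and Itgb3, Itgb5 and Itgb6 compete for Itgav. In breast epithelium the laminin receptors anchor the basal side of cells, and cells that migrate or pass through epithelial-mesenchymal transition (EMT) often rely on a different set of pairs.

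The 8 libraries hold bulk mRNA of tumor cells sorted from breast cancer brain metastases (BCBM) of 4 FVB mice, which carry the numbers 57, 58, 67 and 70. The tumor cells came from the PyMT model, in which the mouse mammary tumor virus promoter drives polyoma middle-T antigen in mammary epithelium. Before this experiment they had been passed serially through mouse brain, grown as organoids and made to carry H2B-Dendra2, and the methods describe 1 such line. Each mouse gave 1 E-cadHI and 1 E-cadLO library, separated by fluorescence-activated cell sorting on endogenous E-cadherin fused to mCFP, and both populations share all of these alleles. The host genotype is labelled wild type. The sort's purity was checked by the study on CFP-positive cells alone, and the study also reports imaging of E-cad-mCFP in sorted cells of both populations.

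Libraries held between 9102781 and 15769200 counts on identified genes, and values below are CPM, counts scaled to a common library size with TMM factors. A floor of 3 counts lay between 0.190 and 0.330 CPM. Cdh1, which encodes E-cadherin itself, was measured at 114, 132, 93.5 and 108 CPM in E-cadHI and at 71.6, 181, 84.5 and 59.2 CPM in E-cadLO of mice 57, 58, 67 and 70, so the groups overlapped for the mRNA of the sorted protein. The summed level of 7 epithelial markers ranged from 7023 to 9710 CPM in E-cadHI and from 5273 to 13690 CPM in E-cadLO, with none at 0 in any library. Of these markers, 2 had an edgeR log2 fold change above 0 and 5 below. Their median within-mouse log2 ratio was -0.86, 0.36, 0.03 and -0.29 in mice 57, 58, 67 and 70, and all 7 were lower in E-cadLO in mouse 57. Only Epcam was lower in all 4 mice, with log2 ratios of -2.21, -0.04, -0.64 and -0.73. All 7 microglia and macrophage markers were higher in E-cadLO in all 4 mice, and their sum ranged from 12.6 to 77.5 CPM in E-cadHI and from 117 to 309 CPM in E-cadLO. No microglia and macrophage marker was at 0. The sum of 6 fibroblast markers, of which 5 were tested and all 5 had a log2 fold change above 0, was 1035 CPM in the E-cadLO library of mouse 57 and between 6.32 and 43.8 CPM in the other 7, with Lum at 0 in 3 E-cadHI libraries and in 1 E-cadLO library. The sum of 5 mural cell markers was between 2.997 and 47.2 CPM in E-cadHI and between 8.96 and 168 CPM in E-cadLO. The noncoding RNA Gm42418 took 14.4% of the counts of E-cadLO mouse 58 and from 2.23% to 7.67% of the others. Within every mouse the summed markers were also higher in E-cadLO for oligodendrocytes (488.5 to 5913 CPM in E-cadHI, 955 to 22650 CPM in E-cadLO), neurons (1.81 to 64.2 and 31.1 to 251 CPM), endothelial cells (40.8 to 75.2 and 54.3 to 96.2 CPM) and platelets (1.95 to 2.31 and 4.54 to 6.76 CPM), and all 5 neuron markers were higher in all 4 mice. The astrocyte sum (1133 to 3383 and 717 to 9379 CPM) was higher in E-cadLO in 3 of 4 mice. It was lower in mouse 57, where Aldoc was at 1005 CPM in E-cadHI and 124 CPM in E-cadLO. Aqp4 was also lower there, while the other 4 astrocyte markers, Gfap, Slc1a3, Gja1 and Slc1a2, were higher in E-cadLO in all 4 mice. Of the oligodendrocyte, neuron, endothelial, platelet and astrocyte markers, Stmn2, Cldn5, Kdr, Gp9, Pf4 and Ppbp were at 0 in at least 1 library. Several integrin chains are also made by these other cell types. The part of such cells in the results was not tested, and in bulk libraries a change in the number of cells of a type and a change of RNA per cell cannot be told apart.

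All 10 genes are annotated as protein coding in the deposited count table. The positions below (GRCm38) are also those of the count table, and the strands are from GENCODE M21. On the plus strand lie Itga6 (chromosome 2, 71745616 to 71858416), Itgav (chromosome 2, 83724397 to 83806916), Itgb1 (chromosome 8, 128685654 to 128733200), Itgb3 (chromosome 11, 104608000 to 104670476), Itgb4 (chromosome 11, 115974709 to 116008412) and Itgb5 (chromosome 16, 33829665 to 33949153). On the minus strand lie Itga2 (chromosome 13, 114835916 to 114932041), Itga3 (chromosome 11, 95044474 to 95076801), Itga5 (chromosome 15, 103344286 to 103366763) and Itgb6 (chromosome 2, 60598292 to 60722643).

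The 250 bases before the RefSeq start (GRCm38.p6) are shown for Itga2 and Itgb5, which were measured higher in E-cadLO in every mouse, and for Itgb1, the common partner of the alpha chains and the most abundant chain. Capitals mark matches, on either strand, to an E-box (CAGGTG), the element that EMT factors of the Snail and Zeb families recognise, an AP-1 site (TGANTCA), a GC box (GGGCGG) or a TATA box (TATAAA).
Itga2, minus strand, chr13:114932101-114932350: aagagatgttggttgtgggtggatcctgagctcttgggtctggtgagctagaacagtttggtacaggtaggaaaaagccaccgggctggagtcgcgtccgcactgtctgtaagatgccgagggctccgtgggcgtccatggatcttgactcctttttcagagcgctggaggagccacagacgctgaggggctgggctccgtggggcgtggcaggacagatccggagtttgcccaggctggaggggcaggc
Itgb5, plus strand, chr16:33829415-33829664: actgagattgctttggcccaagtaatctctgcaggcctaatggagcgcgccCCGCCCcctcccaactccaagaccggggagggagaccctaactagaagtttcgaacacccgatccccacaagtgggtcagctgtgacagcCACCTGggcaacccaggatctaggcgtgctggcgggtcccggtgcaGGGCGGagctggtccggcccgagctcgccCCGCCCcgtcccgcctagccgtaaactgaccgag
Itgb1, plus strand, chr8:128685404-128685653: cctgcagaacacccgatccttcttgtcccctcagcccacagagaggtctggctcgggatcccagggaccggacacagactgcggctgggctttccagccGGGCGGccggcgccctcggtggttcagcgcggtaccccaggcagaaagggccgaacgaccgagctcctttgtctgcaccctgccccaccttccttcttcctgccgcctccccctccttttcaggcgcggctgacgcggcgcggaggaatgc
The Itgb5 window holds an E-box that starts 109 bases before the start site and GC boxes at 199, 63 and 34 bases. The Itgb1 window holds 1 GC box, at 151 bases, and the Itga2 window holds none of the motifs. An E-box is found in 17.2% of 32817 promoter windows of this length, an AP-1 site in 6.8%, a GC box in 32.7% and a TATA box in 12.4%. RefSeq promoters were matched for 7 of the 10 chains, and Itga6, Itgb3 and Itgb4 were not among them. A match is a description of letters and says nothing about binding.

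No chain passed the test between E-cadLO and E-cadHI with edgeR's quasi-likelihood test over the 8 libraries, against 0 of 13598 genes in all (0.0%), where the smallest adjusted p was 0.114. At an unadjusted p under 0.05 the edgeR fit held 4 chains, Itga3, Itga5 and Itgb5 higher and Itga6 lower in E-cadLO, against 14.0% of all genes. With the mouse as a block, edgeR called 99 genes, all higher in E-cadLO (0.728%), and 0 chains. At an unadjusted p under 0.05 the blocked fit held 3 chains, Itga3, Itga6 and Itgb5, against 19.6% of all genes. DESeq2 called 429 genes (2.94%) and 0 chains without the block, and with the block it called 1247 genes (8.69%), of which 216 (1.51%) were lower in E-cadLO, among them Itga6.

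Within mice, 4 of the 10 chains went in 1 direction in all 4 animals, which also held for 31.0% of all genes. These were Itga2, Itga5 and Itgb5, higher in E-cadLO (16.8% of all genes), and Itga6, lower (14.2%). The E-cadHI and E-cadLO libraries did not overlap for Itga2 and Itga6, which held for 8.1% of all genes. The smallest two-sided p that an exact sign-flip test over 4 pairs can give rounds to 0.13, so no chain could pass it. The median within-mouse log2 ratio of all tested genes lay between 0.00 and 0.07 in the 4 mice. TMM scaling brings such medians near 0 by design, so the ratios below are changes relative to the scaled libraries.

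**Figure D1:**
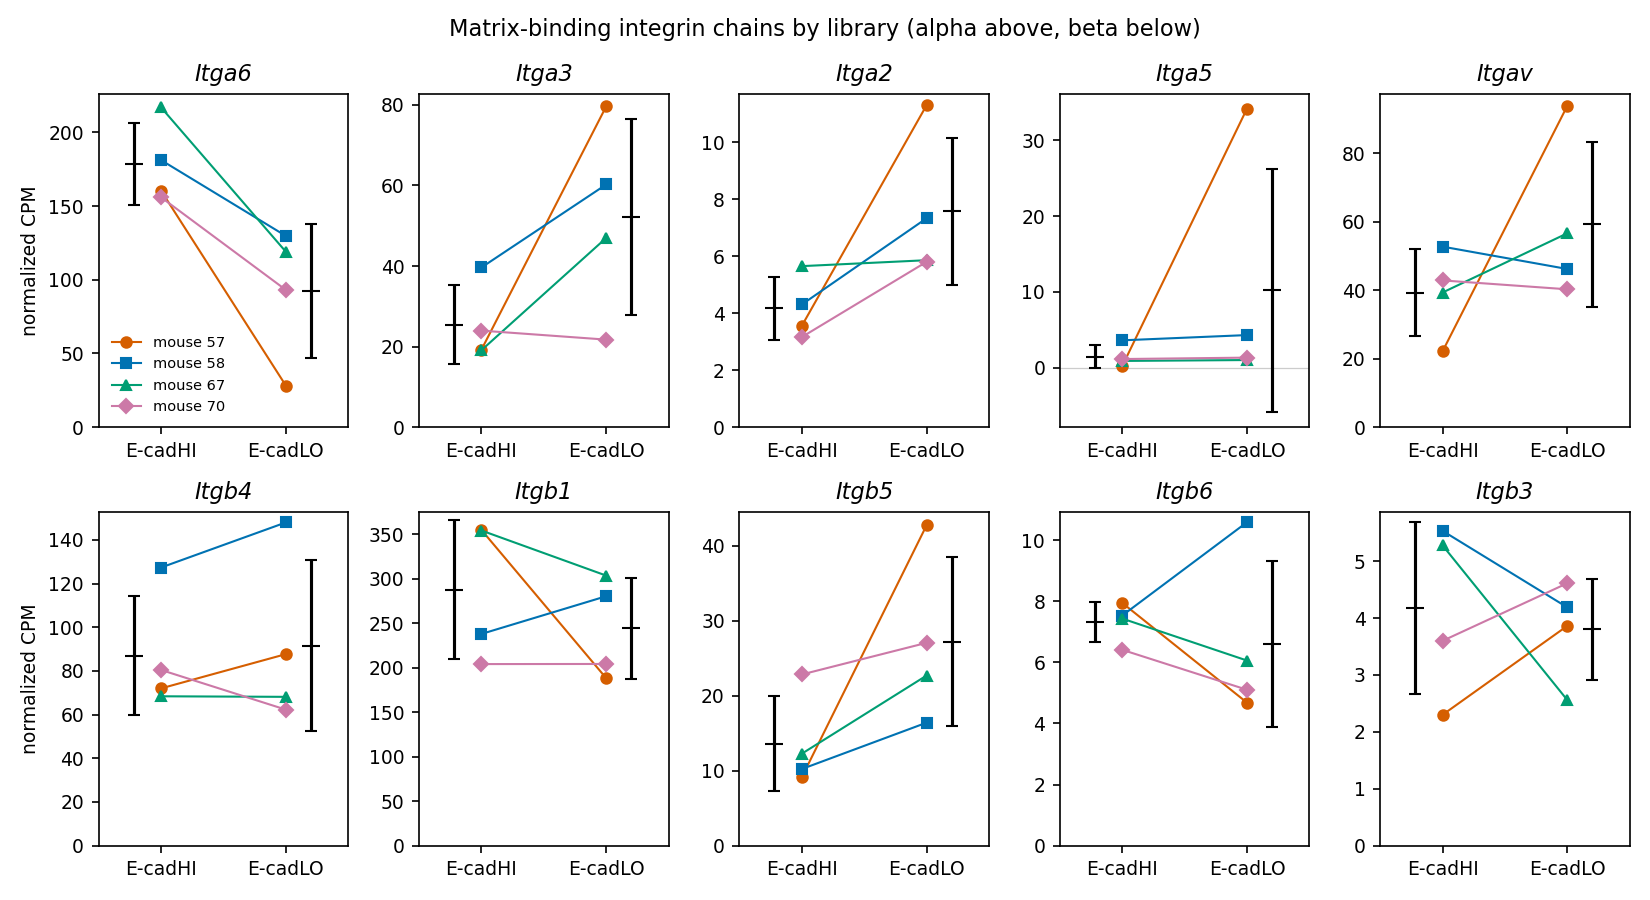
Normalized CPM of the 10 chains in E-cadHI and E-cadLO libraries, with a separate linear axis for each gene, lines joining the libraries of a mouse, and black bars for the mean and SD of 4 mice. Itga6 is lower and Itga2 higher in E-cadLO without overlap, and mouse 57 sets the E-cadLO mean of Itga5.

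The laminin receptor chain Itga6 was the most abundant alpha chain of E-cadHI cells. Itga6 was measured at 160.5, 181, 217 and 156 CPM in E-cadHI and at 28.2, 130, 119 and 93.2 CPM in E-cadLO of mice 57, 58, 67 and 70. Every E-cadLO library was below every E-cadHI library, and mouse 57 was far below the rest. The group means of Itga6 were 179 ± 27.8 CPM and 92.6 ± 45.6 CPM (SD, n = 4), which is 1.93-fold higher in E-cadHI. The log2 ratios of Itga6 within mice were -2.49, -0.48, -0.86 and -0.74 (mean -1.14 ± 0.91, exact sign-flip p = 0.13). The edgeR log2 fold change of Itga6 was -0.95 (SE 0.39, adjusted p = 0.337) without and -1.12 (SE 0.33, adjusted p = 0.160) with the mouse block. Itga6 passed in DESeq2 with the block (log2 fold change -1.11, SE 0.32, adjusted p = 0.0123) and in edgeR with the block once mouse 57 was left out (-0.72, adjusted p = 0.0401), where 3.23% of genes were called and 0.173% were called lower. Among alternatives that changed 1 choice from the unblocked edgeR fit, none called Itga6, and the adjusted p ranged from 0.160 with the mouse block to 0.68 without mouse 67.

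Itgb4, the beta chain that pairs only with Itga6, showed no common direction. It was measured at 72, 127, 68.4 and 80.4 CPM in E-cadHI and at 87.7, 148, 68.1 and 62.3 CPM in E-cadLO. Mouse 58 was the highest in both populations, and the groups overlapped. The log2 ratios of Itgb4 within mice were 0.28, 0.22, -0.01 and -0.37 (mean 0.03 ± 0.29), and the edgeR log2 fold change was 0.07 (SE 0.31, adjusted p = 0.924), which was -0.0055 without mouse 57. An antisense gene, B230344G16Rik, shares 7.66% of the exon bases of Itgb4, and whether counting used strand was not stated.

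Itga3, the other laminin-binding alpha chain, was measured at 19.2, 39.6, 19.1 and 24.0 CPM in E-cadHI and at 79.6, 60.3, 47.0 and 21.7 CPM in E-cadLO. It was higher in E-cadLO in 3 of 4 mice, and the E-cadLO library of mouse 70 lay within the E-cadHI range. Within mice, the log2 ratios of Itga3 were 2.02, 0.60, 1.28 and -0.14 (mean 0.94 ± 0.92, exact sign-flip p = 0.25). With edgeR, Itga3 had a log2 fold change of 1.03 (SE 0.39, adjusted p = 0.317), or 0.63 without mouse 57. Over the alternatives its adjusted p ranged from 0.0661, in DESeq2 with the block, to 0.718.

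Itga3 and Itga6 compete for Itgb1 and share ligands, so their ratio within a library was compared as a quantity free of library scaling. On the per-kilobase scale the log2 ratio of Itga6 to Itga3 was 2.37, 1.52, 2.81 and 2.02 in E-cadHI and -2.14, 0.44, 0.67 and 1.41 in E-cadLO. All 4 E-cadLO values were below the E-cadHI value of the same mouse and below every E-cadHI value, and in mouse 57 the order of both chains was turned. The ratio changed by -4.51, -1.08, -2.14 and -0.60 (mean -2.08 ± 1.74, exact sign-flip p = 0.13, adjusted p = 0.25 over 6 ratios). The ratio of Itgb4 to Itga6 changed by 2.77, 0.70, 0.86 and 0.37 (mean 1.17 ± 1.08, exact sign-flip p = 0.13, adjusted p = 0.25). The change of each ratio had the same sign in 4 of 4 mice, and the mean changes without mouse 57 were -1.27 and 0.64. Both ratios hold the same Itga6 values, which were lower in E-cadLO in every mouse, so they are not independent results.

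Itga2, the collagen receptor chain, was low in all libraries, at 3.55, 4.30, 5.65 and 3.16 CPM in E-cadHI and 11.3, 7.33, 5.86 and 5.80 CPM in E-cadLO. The groups did not overlap, although the highest E-cadHI and the lowest E-cadLO library differed by less than 1 CPM. The log2 ratios of Itga2 were 1.54, 0.70, 0.05 and 0.78 (mean 0.77 ± 0.61, exact sign-flip p = 0.13). The edgeR log2 fold change of Itga2 was 0.86 (SE 0.38, adjusted p = 0.359), and 0.51 without mouse 57.

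Itga5, the fibronectin receptor chain, rested on 1 library. Its raw counts were 3, 47, 12 and 13 in E-cadHI and 460, 37, 15 and 19 in E-cadLO, which correspond to 0.209, 3.61, 0.892 and 1.14 CPM and to 34.2, 4.30, 1.01 and 1.33 CPM. Outside mouse 57 the populations of a mouse were close, and mouse 58 was the highest of these in both. In mice 57, 58, 67 and 70 the log2 ratios were 5.61, 0.22, 0.12 and 0.16 (mean 1.53 ± 2.72). With edgeR, Itga5 had a log2 fold change of 2.80 (SE 1.24, adjusted p = 0.356), 1.35 (adjusted p = 0.535) with the mouse block, and 0.20 without mouse 57. The same library held the high fibroblast marker sum of 1035 CPM, against 8.15 CPM in E-cadHI of that mouse, and its Fn1 level was 1873 CPM; whether the Itga5 reads came from such cells was not tested. Over the 4 within-mouse ratios, the genes nearest to Itga5 were S100a4 (root mean square log2 difference 0.413), Il1r1 (0.466) and Fbln2 (0.469). Their log2 ratios in mouse 57 were 5.1, 5.5 and 5.5. A choice by likeness to Itga5 requires such a high value in that mouse, so these genes are named only as a description.

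Itgb1, the partner of all 5 alpha chains, was the most abundant chain in every library. It was measured at 355, 238, 354 and 204 CPM in E-cadHI and at 188, 281, 304 and 204 CPM in E-cadLO. It was lower in E-cadLO in mice 57 and 67, higher in mouse 58 and nearly level in mouse 70. Within mice, the log2 ratios of Itgb1 were -0.91, 0.24, -0.22 and 0.00 (mean -0.22 ± 0.50, exact sign-flip p = 0.75), and the edgeR log2 fold change was -0.24 (SE 0.24, adjusted p = 0.638). The ratio of Itgb4 to Itgb1 changed by 1.20, -0.02, 0.22 and -0.37 (mean 0.26 ± 0.67, exact sign-flip p = 0.75), and by a mean of -0.06 without mouse 57.

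Among the chains of the RGD receptors, Itgav was measured at 22.2, 52.7, 39.3 and 42.8 CPM in E-cadHI and at 93.8, 46.2, 56.6 and 40.3 CPM in E-cadLO. Mice 57 and 67 were higher in E-cadLO, mice 58 and 70 slightly lower, and the groups overlapped. The log2 ratios of Itgav were 2.06, -0.19, 0.52 and -0.09 (mean 0.57 ± 1.04, exact sign-flip p = 0.5). With edgeR, Itgav had a log2 fold change of 0.59 (SE 0.33, adjusted p = 0.427) and 0.07 without mouse 57. Another annotated gene shares 5.9% of the exon bases of Itgav.

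Itgb5, which forms the vitronectin receptor with Itgav, was measured at 9.13, 10.2, 12.3 and 22.8 CPM in E-cadHI and at 42.7, 16.4, 22.7 and 27.0 CPM in E-cadLO. It was higher in E-cadLO in every mouse, and the groups overlapped, with mouse 70 the highest in E-cadHI. In mice 57, 58, 67 and 70 the log2 ratios were 2.17, 0.66, 0.86 and 0.24 (mean 0.98 ± 0.83, exact sign-flip p = 0.13). The edgeR log2 fold change of Itgb5 was 1.0 (SE 0.38, adjusted p = 0.317), 1.0 (SE 0.34, adjusted p = 0.195) with the mouse block, and 0.53 without mouse 57. Over the alternatives its adjusted p ranged from 0.0608, in DESeq2 with the block, to 0.722. Among the members, the within-mouse ratios of Itgb5 lay nearest to those of Itga3, with a root mean square difference of 0.291 on the log2 scale over 4 mice.

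Itgb6, which activates latent TGF-beta as the partner of Itgav in epithelium, was measured at 7.95, 7.53, 7.43 and 6.41 CPM in E-cadHI and at 4.68, 10.6, 6.06 and 5.10 CPM in E-cadLO. The E-cadHI libraries lay close together and the E-cadLO libraries on both sides of them, with mouse 58 the only one that was higher. Within mice, the log2 ratios of Itgb6 were -0.70, 0.47, -0.27 and -0.30 (mean -0.20 ± 0.49), and the edgeR log2 fold change was -0.15 (SE 0.36, adjusted p = 0.849), which was 0.0022 without mouse 57.

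Itgb3, the partner of Itgav in endothelium, platelets and some invasive cells, was low, at 2.30, 5.53, 5.28 and 3.60 CPM in E-cadHI and 3.86, 4.19, 2.56 and 4.61 CPM in E-cadLO. Mice 57 and 70 were higher in E-cadLO and mice 58 and 67 lower. In mice 57, 58, 67 and 70 the log2 ratios were 0.64, -0.36, -0.92 and 0.32 (mean -0.08 ± 0.70), and the edgeR log2 fold change was -0.14 (SE 0.43, adjusted p = 0.891), which was 0.16 without mouse 67.

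As partners of Itgav, the 3 beta chains were also set against each other within a library. The log2 ratio of Itgb6 to Itgb5 was lower in E-cadLO in all 4 mice, with changes of -2.87, -0.19, -1.14 and -0.54 (mean -1.19 ± 1.19, exact sign-flip p = 0.13, adjusted p = 0.25). The ratio of Itgb3 to Itgb5 was lower in 3 of 4 mice, with changes of -1.53, -1.02, -1.78 and 0.08 (mean -1.06 ± 0.82, exact sign-flip p = 0.25, adjusted p = 0.375). The ratio of Itga5 to Itga2 changed by 4.07, -0.48, 0.07 and -0.63 and showed no common direction (exact sign-flip p = 0.875), with a mean of 0.76 that became -0.35 without mouse 57.

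**Figure D2:**
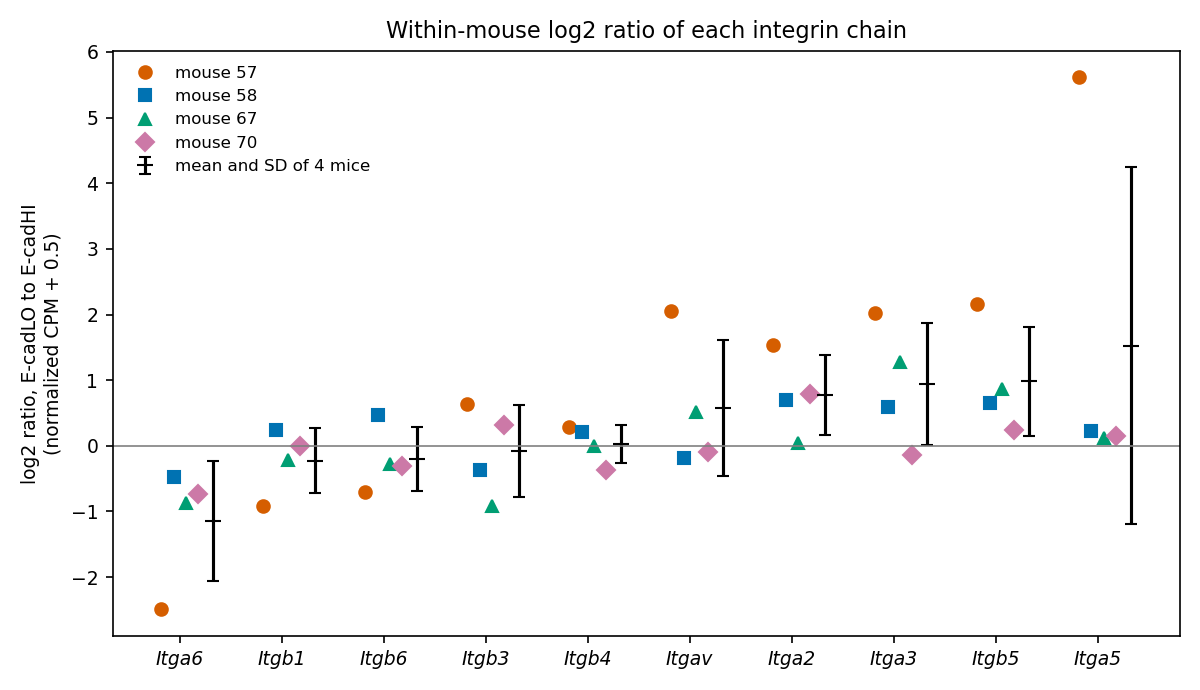
Within-mouse log2 ratios (E-cadLO to E-cadHI, normalized CPM plus 0.5) of the 10 chains, 1 symbol per mouse, with black bars for the mean and SD of 4 mice. Only Itga6 lies below 0 in all mice, Itga2, Itgb5 and Itga5 lie above 0 in all mice, and mouse 57 is the outermost mouse for 8 of the chains.

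Levels between chains were compared per kilobase of exon (GENCODE M21, GRCm38), as normalized CPM per kb. In E-cadHI the order was Itgb1 (70.6 ± 19.2), Itga6 (19.8 ± 3.08), Itgb4 (12.4 ± 3.90), Itga3 (4.46 ± 1.70), Itgb5 (3.83 ± 1.77), Itgav (3.65 ± 1.18), Itgb6 (1.03 ± 0.0917), Itgb3 (0.708 ± 0.257), Itga2 (0.584 ± 0.154) and Itga5 (0.297 ± 0.301), as mean ± SD of 4 libraries. The mean ± SD ranges of Itga3, Itgb5 and Itgav overlapped from neighbour to neighbour, and so did those of the 4 lowest chains. In E-cadLO, Itgb1 (59.8 ± 13.8) stayed first and stood apart from the rest. It was followed by Itgb4 (13.0 ± 5.58), Itga6 (10.3 ± 5.05), Itga3 (9.13 ± 4.26), Itgb5 (7.66 ± 3.16), Itgav (5.51 ± 2.24), Itga5 (2.07 ± 3.25), Itga2 (1.06 ± 0.362), Itgb6 (0.929 ± 0.382) and Itgb3 (0.645 ± 0.150). The mean ± SD range of each of these overlapped with that of the next, but such ranges ignore that chains share a library. Within every E-cadLO library, Itgb5 was above Itgav and Itgav above Itga5. The order of the other neighbours below Itgb1 varied between libraries, and Itga5 was above Itga2 only in mouse 57.

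As a share of the summed per-kilobase level of the 5 alpha chains, Itga6 made up 69.1 ± 7.17% in E-cadHI and 39.3 ± 20.5% in E-cadLO, where it took 9.12%, 46.2%, 47.6% and 54.5% in mice 57, 58, 67 and 70. The lowest E-cadHI share of Itga6 was 60.4%, so the groups did not overlap. Itga3 made up 15.4 ± 4.34% in E-cadHI and 31.1 ± 8.61% in E-cadLO. Itga5 held 20.2% of the alpha level in E-cadLO of mouse 57 and from 0.738% to 2.80% in the other E-cadLO libraries. Of the beta chains, Itgb1 held 78.7 ± 7.87% in E-cadHI and 72.5 ± 7.0% in E-cadLO, Itgb4 14.6 ± 6.01% and 15.7 ± 4.95%, and Itgb5 4.68 ± 3.08% and 9.91 ± 5.26%. Shares within a class are not independent, since a lower share of 1 chain raises the others.

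**Figure D3:**
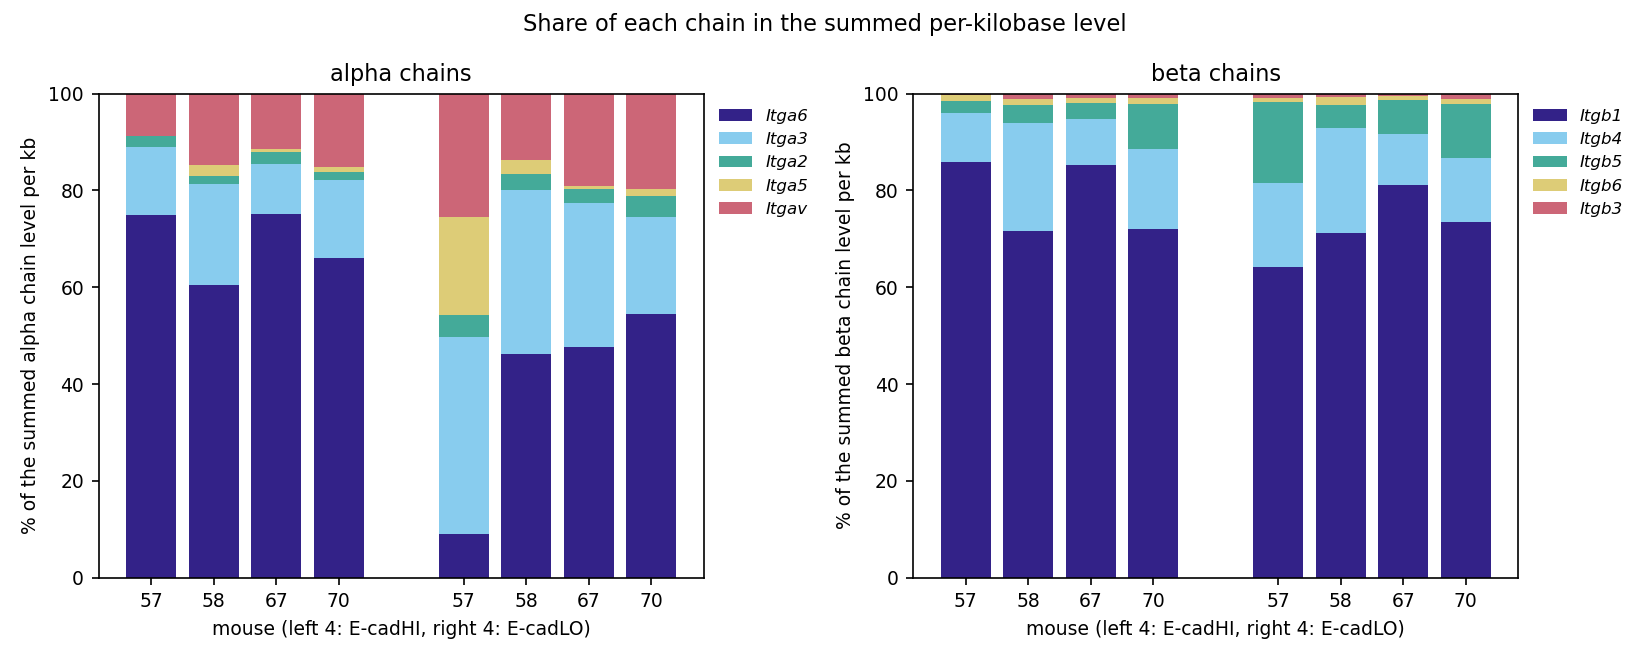
Stacked bars of the share (%) of each alpha chain (left) and beta chain (right) in the summed normalized CPM per kb of its class, 1 bar per library, with E-cadHI on the left of each panel and E-cadLO on the right. The Itga6 share is between 60.4% and 75.1% in E-cadHI and between 9.12% and 54.5% in E-cadLO.

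By likeness of the 4 within-mouse ratios, the genes nearest to Itgb1 were Get4 (root mean square log2 difference 0.0427), Aig1 (0.0526) and Arhgef12 (0.0541). Nearest to Itgb4 were Iah1 (0.0681), Plekhn1 (0.0758) and Twistnb (0.0794), and nearest to Itgb3 were Rabep2 (0.129), Zfp629 (0.14) and Reps1 (0.156). They were picked from 13598 genes by 4 values each and are named as a description.

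Other genes of the same pathway were counted from fixed lists. The edgeR log2 fold change was above 0 for 6 of the 10 member chains (median 0.33, 0.30 with the mouse block). The median rested on mouse 57, since the within-mouse medians of the chains were 1.09, 0.23, 0.02 and -0.04 in mice 57, 58, 67 and 70, and without mouse 57 the fitted median was 0.03 (0.02 with the block). These values stand against a median of 0.06 over all tested genes (0.03 with the block) and 55.1% of genes above 0. None of the lists below held a called gene in either edgeR fit. Of 10 other integrin chains, 8 were tested, 6 were above 0 and 2 below, with a median of 0.31 that was -0.01 with the block and, without it, ranged from 0.03 without mouse 70 to 0.47 without mouse 57. Itga8, a nephronectin receptor chain, was measured at 52.3 ± 19.98 CPM in E-cadHI and 40.5 ± 27.0 CPM in E-cadLO and was lower in all 4 mice (log2 fold change -0.37, adjusted p = 0.693). In mouse 67, however, Itga8 was nearly level, at 79.9 CPM in E-cadHI and 79.0 CPM in E-cadLO. The group means were close for Itgb8 (22.1 ± 9.21 and 24.3 ± 14.6 CPM), another partner of Itgav, and Itga1 (2.92 ± 1.0 and 2.92 ± 2.23 CPM), a collagen receptor chain. Within mice Itga1 went both ways, with log2 ratios of 0.47, -1.05, -0.59 and 0.40 on counts of 8 to 85 per library. Itga7, a laminin receptor chain of muscle, had raw counts of 0, 6, 6 and 15 in E-cadHI and 554, 23, 10 and 35 in E-cadLO, so that its highest value came from the same mouse 57 library as that of Itga5.

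Of 24 adaptors that tie integrin tails to actin, 22 were tested, 15 were above 0 and 7 below, with a median of 0.36 (0.31 with the block), which was 0.06 (0.01) without mouse 57. The group means of the 4 most abundant ones differed by less than the larger of their SDs. Actn4, which crosslinks actin, was at 942 ± 184 CPM in E-cadHI and 786 ± 321 CPM in E-cadLO. Fermt2, the kindlin that activates integrins outside blood cells, was at 258 ± 16.6 and 253 ± 68.8 CPM. Lims1 was at 235 ± 30.2 and 223 ± 63.2 CPM, and Flna at 135 ± 25.6 and 175.5 ± 128 CPM. The lowest adjusted p of an adaptor in the blocked edgeR fit was that of Fermt3, the kindlin of blood cells, which was named after its values were seen. Fermt3 was measured at 0.418, 1.31, 4.61 and 5.09 CPM in E-cadHI and at 1.78, 8.14, 15.3 and 18.7 CPM in E-cadLO, higher in E-cadLO in every mouse (blocked log2 fold change 2.06, SE 0.36, adjusted p = 0.0566). The groups overlapped, and without the block the edgeR adjusted p of Fermt3 was 0.356. Fermt3 activates integrins of leukocytes, those with Itgb1 included, and the microglia and macrophage marker sum was also higher in E-cadLO in every mouse. Whether the Fermt3 reads came from such cells was not tested. In the unblocked edgeR fit the lowest adjusted p of an adaptor was that of Tgfb1i1 (log2 fold change 2.67, adjusted p = 0.262), also named after its values were seen. Its raw counts were 1, 7, 6 and 9 in E-cadHI and 54, 31, 39 and 23 in E-cadLO. Of the 22 tested adaptors, 5 were higher in E-cadLO in all 4 mice (16.8% of all genes), namely Fermt3, Tgfb1i1, Vcl, Tns1 and Lims2.

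Of the 4 hemidesmosome genes, Plec, Dst and Cd151 were tested and all 3 were above 0, with a median of 0.63 (0.44 with the block), which was 0.40 (0.32) with 2 of 3 above 0 without mouse 57. Plec, which links Itgb4 to keratin, was at 57.0 ± 11.5 CPM in E-cadHI and 88.2 ± 55.9 CPM in E-cadLO, where mouse 57 reached 169 CPM. Dst was at 54.8 ± 7.94 and 87.8 ± 20.1 CPM and was higher in E-cadLO in all 4 mice (log2 fold change 0.68, SE 0.20, adjusted p = 0.282). In mouse 58, however, Dst was nearly level, at 64.3 CPM in E-cadHI and 64.8 CPM in E-cadLO. Cd151, a tetraspanin that binds laminin receptors, was at 16.6 ± 7.39 and 19.9 ± 7.62 CPM.

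Of 11 laminin chains, 10 were tested, 8 were above 0 and 2 below, with a median of 0.49 (0.29 with the block). Without mouse 57, 5 were above 0 and 5 below, with a median of 0.06 (-0.08 with the block). Lamb3, a chain of an epithelial laminin that the Itga6 and Itga3 receptors bind, was at 77.0 ± 10.98 CPM in E-cadHI and 93.8 ± 49.6 CPM in E-cadLO. Lama4 was at 42.7 ± 11.02 and 38.2 ± 6.85 CPM. Lamb1 was at 30.2 ± 8.46 and 81.2 ± 111 CPM, with 248 CPM in the E-cadLO library of mouse 57.

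Of 13 other matrix ligands, 12 were tested, 10 were above 0 and 2 below, with a median of 2.04 (2.01 with the block). The size rested on mouse 57, where the within-mouse median was 3.38, against 0.12, 0.35 and 0.75 in mice 58, 67 and 70, and without mouse 57 the fitted median was 0.82 (0.48 with the block) over 13 tested genes. Col1a1, Col1a2 and Col3a1 of this list are also fibroblast markers, whose sum was highest in that library, and their part in the median was not tested. Fn1, the ligand of the Itga5 receptor, was measured at 0.418, 1.84, 4.01 and 7.55 CPM in E-cadHI and at 1873, 3.14, 38.6 and 16.4 CPM in E-cadLO. It was higher in E-cadLO in all 4 mice, yet the groups overlapped (log2 fold change 7.14, adjusted p = 0.274; 3.17 and 0.306 with the block). Tnc was at 54.2 ± 18.0 and 142 ± 159 CPM and Ltbp1, which holds latent TGF-beta in the matrix, at 73.8 ± 13.7 and 134 ± 143 CPM, both with their highest value in E-cadLO of mouse 57. Spp1, which encodes osteopontin, a ligand of Itgav receptors, was the most abundant of the list, at 5239, 2708, 7708 and 5339 CPM in E-cadHI and 1115, 3041, 3928 and 3397 CPM in E-cadLO (log2 fold change -0.87, SE 0.42, adjusted p = 0.384). Npnt, the nephronectin gene, was named after its values were seen, since it and Spp1 were the 2 ligands below 0. It was measured at 87.7, 85.4, 103 and 64.4 CPM in E-cadHI and 18.4, 70.6, 40.3 and 37.5 CPM in E-cadLO, lower in E-cadLO in all 4 mice (log2 fold change -1.03, SE 0.35, adjusted p = 0.299).

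**Figure D4:**
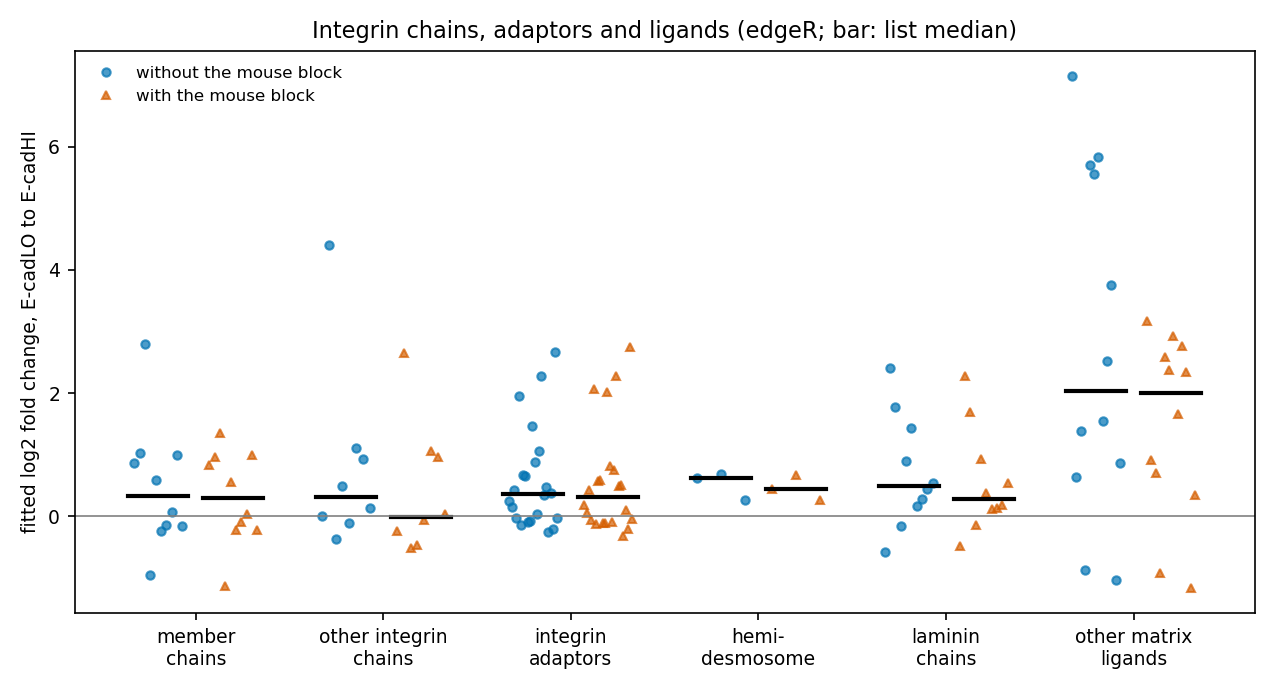
Fitted edgeR log2 fold change (E-cadLO to E-cadHI) of each tested gene in 6 lists, without (circles) and with (triangles) the mouse block, with a black bar for the list's median. The member chains have medians of 0.33 and 0.30 and the other matrix ligands 2.04 and 2.01, which without mouse 57 were 0.03 and 0.02 and 0.82 and 0.48.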

How the data were processed

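The authors sequenced TruSeq mRNA libraries with single reads, mapped them with Hisat 2.1.0 to GRCm38 and deposited raw counts per gene. Their methods name Icount and the submitters' processing notes HTSeq, and the strand setting and the handling of reads that match several genes were not given in the sources used here. From these counts, 365 entries without an identifier (0.0636% to 0.0954% of counts) were left out. Counts were tested in edgeR 4.0.16 under R 4.3.3, with TMM, filterByExpr by group, its quasi-likelihood fit to all 8 libraries and Benjamini-Hochberg adjustment over 13598 genes, with a threshold of 0.05. The unblocked fit came first because the study states DESeq2 with no block. Populations of a mouse carry the same number in the labels and come from the same animal. Deviations from the group means correlated at 0.228 to 0.681 within the 4 same-mouse pairs and at most at 0.202 in the other 12. Within-mouse ratios used normalized CPM plus 0.5 and an exact two-sided sign-flip test. Ratios between chains were adjusted over 6.

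All 10 chains are named. From each pathway list, genes past the threshold in either edgeR fit and otherwise the most abundant tested genes, up to 4, are named, and for Itgb1, Itgb4, Itga5 and Itgb3 the 3 nearest genes. Of the laminin chains so chosen, 1 is not reported here. The chains, lists and tests were chosen with earlier results of these data known. Alternatives were DESeq2 1.42.0 with and without the block, its size factors within edgeR, no filter, at least 10 counts in every library, a robust fit, pseudocounts of 0.1 and 1, each mouse left out, and, chosen after the data were seen, each mouse left out of the blocked fit and of the list medians. The steps were tested on simulated data. Neutrophil markers were also summed (15.8 to 25.3 CPM in E-cadHI, 9.06 to 24.5 in E-cadLO). Replicates are separate mice. Python 3.11, pandas 2.3, scipy 1.17 and matplotlib 3.10 were used.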

Additional observations from a re-analysis of the deposited data

Results flagged for a closer look

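Of 48 groups of 4 values examined, 3 held a library or mouse far from the others by Dixon's criterion, which chance gives in about 1 in 20 groups (2.4 expected). All 3 concern Itga5 and mouse 57, and they share the same reads. Itga5 was at 34.2 CPM in E-cadLO of mouse 57, against 4.30 CPM in the nearest E-cadLO library. Its within-mouse log2 ratio was 5.61 in mouse 57 and 0.22 in the nearest mouse. The log2 ratio of Itga5 to Itga2 changed by 4.07 in mouse 57 and by 0.07 in the nearest mouse.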

How the results depend on the processing

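The number of genes called higher and lower in E-cadLO, 0 and 0 in edgeR without the block, was 386 and 43 with DESeq2, 1031 and 216 with DESeq2 and the replicate block, 23 and 0 without a filter, 3 and 0 with at least 10 counts in every library, and 99 and 0 with the replicate block in edgeR. In the blocked edgeR fit without mouse 57 it was 425 and 24, without mouse 58 it was 63 and 3, without mouse 67 it was 0 and 0, and without mouse 70 it was 2 and 0. Without the block, leaving out any mouse gave 0 and 0. The count of called chains was 0 in all of these except 1, Itga6, lower in DESeq2 with the replicate block and in the blocked fit without mouse 57. The replicate block changed no other call of a chain. Itga5 could not be tested with at least 10 counts in every library.

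Signs turned only for chains and ratios near 0 or set by 1 library. With the replicate block, the log2 fold change of Itgb4 was -0.0738 without mouse 57 and -0.0153 without mouse 58, and that of Itgb3 was 0.0406 without mouse 58 and 0.24 without mouse 67. Leaving out each mouse without the block, the log2 fold change ranged from -0.37 to 0.16 for Itgb3 (above 0 without mouse 67), from -0.00552 to 0.19 for Itgb4 and from -0.45 to 0.00222 for Itgb6 (both turned without mouse 57). The within-mouse mean log2 ratio ranged from -0.38 to 0.00485 for Itgb1 (turned without mouse 57), from -0.32 to 0.20 for Itgb3 (0.0136 without mouse 58, highest without mouse 67) and from -0.052 to 0.16 for Itgb4 (-0.0298 without mouse 58, lowest without mouse 57). The mean change of Itgb4 to Itgb1 ranged from -0.0568 to 0.46 and that of Itga5 to Itga2 from -0.35 to 1.22, both lowest without mouse 57. The cause of these turns was not tested. With 4 pairs the smallest sign-flip p rounds to 0.13, and Itga5, at 3 to 47 counts outside 1 library, is limited by depth.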
